A study of Mus musculus with 4 samples.

Results

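The CCR2-positive IL1B-expressing macrophages described here are single cells from the perigonadal white fat of mice that held at least 1 UMI of each of Ccr2, Il1b and Csf1r and 0 UMIs of Ly6c2, Lyve1, Timd4, Arg1, Cd226, Flt3, Mki67 and Top2a. A UMI (unique molecular identifier) is 1 counted mRNA molecule. Of 21867 deposited cells, 21388 had 500 or more UMIs, 300 or more genes and no more than 10% mitochondrial UMIs, and 2136 of these (9.99%) passed the gate. By library, the gate took 867 of 8731 cells in CKO HFD, 727 of 4650 in WT HFD, 251 of 4302 in CKO normal diet and 291 of 3705 in WT normal diet. The members were chosen by these UMI counts, so all that follows is description, with no test.

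The study set macrophages of mice with a conditional knockout (CKO) of BLIMP1, a transcriptional repressor encoded by Prdm1, against those of control mice that the labels call WT, on a high-fat diet (HFD) or on a normal diet, and asked how the subsets of adipose macrophages differ. Cells were sorted as live, lineage-negative and positive for CD45, CD11b and CD64, and each of the 4 groups is 1 droplet library of 3′ ends, so that there are no replicates and a group cannot be told apart from the preparation of its library. The sources used here do not give the cell type that drives the knockout, the deleted exons, or the age and number of the mice. Intervals in parentheses after a value are exact 95% intervals for counting error only, and cover no variation between mice.

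Interleukin-1β is made as an inactive precursor, whose gene Il1b is switched on through NF-κB after a first inflammatory signal, and caspase-1 in an inflammasome built on a sensor such as NLRP3 cuts it into the secreted form. CCR2 is the receptor that brings monocytes into tissue along CCL2 and related ligands, and CSF1R, the receptor for CSF1, is carried by monocytes and macrophages alike. In fat tissue, cells with CCR2 are taken to be mostly monocyte-derived, whereas LYVE1 and TIMD4 mark macrophages that have lived there longer. Ly6c2 marks classical monocytes, Flt3 dendritic cells, and Mki67 and Top2a dividing cells, while Arg1 encodes arginase and Cd226 an activating receptor.

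The gated cells were the smallest share of the library in CKO normal diet and the largest in WT HFD. The share was 9.93% (9.31 to 10.6) in CKO HFD, 15.6% (14.6 to 16.7) in WT HFD, 5.83% (5.15 to 6.58) in CKO normal diet and 7.85% (7.01 to 8.77) in WT normal diet. The ratio of CKO over WT came to 0.635 (0.575 to 0.702) with HFD and 0.743 (0.625 to 0.883) with the normal diet, and the ratio of HFD over normal diet was 1.70 (1.48 to 1.97) in CKO and 1.99 (1.74 to 2.29) in WT. These shares can move with depth either way, since a deeper cell is more likely to show 1 UMI of a required gene or of an excluded one. The median kept cell held 3923 UMIs in CKO HFD, 14492 in WT HFD, 3939 in CKO normal diet and 4092 in WT normal diet.

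With every cell thinned to 2000 UMIs before gating, the share was 7.13% in CKO HFD, 9.32% in WT HFD, 5.23% in CKO normal diet and 7.95% in WT normal diet. Thinning left out 1076 shallower cells in CKO HFD, 67 in WT HFD, 820 in CKO normal diet and 675 in WT normal diet. CKO was below WT under both diets here too, with ratios of 0.766 (0.673 to 0.871) under HFD and 0.657 (0.539 to 0.80) under the normal diet, whereas HFD over normal diet was 1.36 (1.15 to 1.62) in CKO and 1.17 (0.998 to 1.38) in WT, the last with an interval that includes 1. A setting that left out every cell with 2 or more UMIs of other cell types' markers turned the order under HFD, with CKO over WT at 3.93 (3.00 to 5.24), and kept it under the normal diet, at 0.697 (0.532 to 0.912). It also turned HFD over normal diet in WT, to 0.379 (0.274 to 0.520), and removed 48.9% of gated cells in CKO HFD, 91.7% in WT HFD, 59.4% in CKO normal diet and 56.7% in WT normal diet. A shorter list left off 8 of those markers, Naaa, Wdfy4, Cadm1, Csf3r, Cd79b, Il7r, Flt1 and Pi16, a choice made after seeing the data. With it, CKO over WT was 0.652 under HFD and 0.760 under the normal diet.

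The diet difference also rested on the excluded genes. Cells positive for Ccr2, Il1b and Csf1r, whatever else they held, made up 22.2% of cells in CKO HFD, 34.8% in WT HFD, 23.4% in CKO normal diet and 28.6% in WT normal diet. HFD over normal diet was then 0.95 (0.880 to 1.03) in CKO and 1.21 (1.12 to 1.31) in WT, and the share in CKO relative to WT 0.640 (0.599 to 0.684) with HFD and 0.817 (0.749 to 0.892) with the normal diet. Cd226 took the most cells under the normal diet: it was present in 12.6% of triple-positive cells in CKO HFD, 19.3% in WT HFD, 55.3% in CKO normal diet and 54.7% in WT normal diet. Under the normal diet more triple-positive cells held Cd226 than lacked it.

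**Figure D1:**
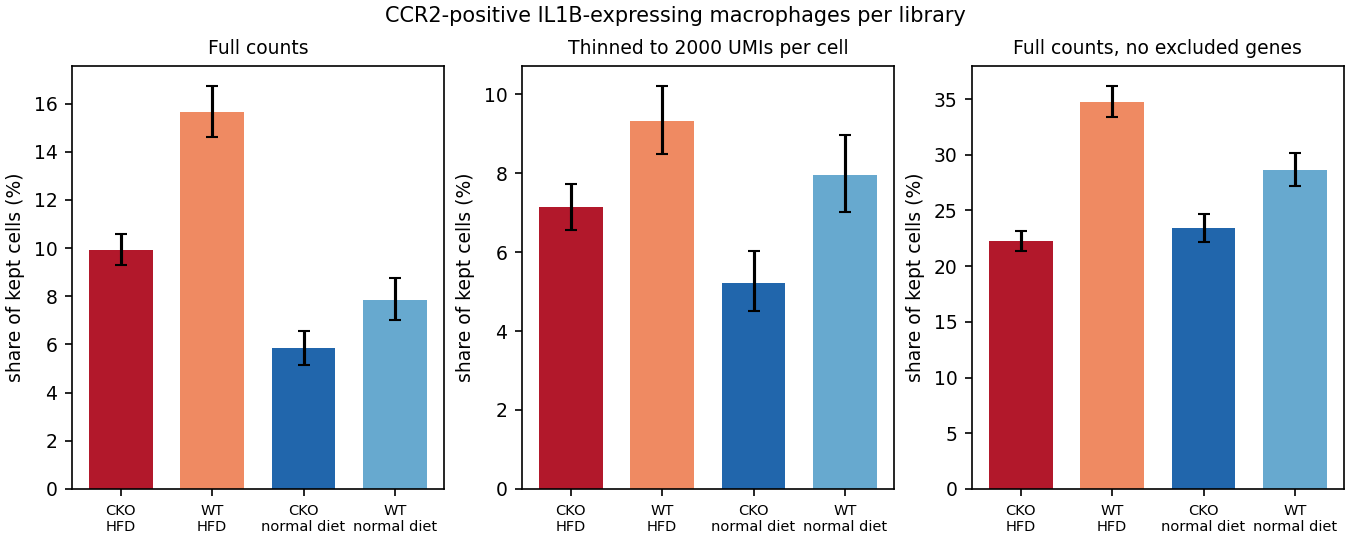
Gated cells as a share of kept cells (%) in each library, at full depth, after thinning each cell to 2000 UMIs, and without the 8 excluded genes; bars are 1 library each and error bars are exact 95% intervals for counting error only. CKO stands below WT under the same diet in all 3 panels (not so under HFD in a setting not drawn, without cells holding other types' markers, where the ratio was 3.93), while the order of HFD and normal diet in CKO turns over between the first panel (9.93% and 5.83%) and the last (22.2% and 23.4%).

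Many cells sit at the edge of the gate. At least 1 of Ccr2, Il1b and Csf1r was present at exactly 1 UMI in 45.8% of gated cells in CKO HFD, 19.1% in WT HFD, 54.2% in CKO normal diet and 58.4% in WT normal diet. Just outside it, 2599 cells in CKO HFD, 1584 in WT HFD, 910 in CKO normal diet and 1004 in WT normal diet failed a single criterion. Values below are UMIs summed over the gated cells of a library and scaled by their total to counts-per-million units (CPM). By the choice of cells, Il1b stood at 1146 CPM in CKO HFD, 996 in WT HFD, 1445 in CKO normal diet and 1481 in WT normal diet. Ccr2 stood at 978 CPM in CKO HFD, 1134.5 in WT HFD, 1261 in CKO normal diet and 1270.2 in WT normal diet. Csf1r stood at 544 CPM in CKO HFD, 532 in WT HFD, 474 in CKO normal diet and 478 in WT normal diet, and these levels follow from the gate. The gated cells held 32.3% of all Il1b UMIs of the CKO HFD library, 43.6% in WT HFD, 12.5% in CKO normal diet and 11.8% in WT normal diet, so that most Il1b lay outside the gate in all 4 libraries.

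The label was checked against marker lists of the cell types the sort could hold. All 12 macrophage markers had UMIs in the gated cells of every library, and their summed level was 11280 CPM in CKO HFD, 10628 in WT HFD, 6623 in CKO normal diet and 6647 in WT normal diet. C1qa, a complement subunit that macrophages make and blood monocytes largely lack, stood at 2098 CPM in CKO HFD, 1936 in WT HFD, 970.2 in CKO normal diet and 988 in WT normal diet, lower under the normal diet. Neutrophil markers (11 genes) summed to 24.2 CPM in CKO HFD, 32.5 in WT HFD, 52.9 in CKO normal diet and 66.8 in WT normal diet, and Ly6g and Ngp among them were at 0 in all 4 libraries. Lymphoid markers (9 genes) summed to between 9.34 and 27.7 CPM with Cd3e and Trac at 0. B cell markers (6 genes) summed to between 13.5 and 26.1 CPM with Pax5 at 0, and mast cell markers (6 genes) to between 0 and 0.214 CPM. The fibroblast markers (7 genes) reached 36.2 CPM in CKO HFD, 77.4 CPM in WT HFD, 17.9 CPM in CKO normal diet and 13.5 CPM in WT normal diet. Markers of type 2 dendritic cells (11 genes), several of which macrophages also make, summed to 973 CPM in CKO HFD, 888 in WT HFD, 972 in CKO normal diet and 911 in WT normal diet, with the excluded Flt3 at 0. Those of type 1 dendritic cells (7 genes) summed to between 266 and 394 CPM, with Xcr1 and Itgae at 0. Classical monocyte markers (13 genes, of which Ccr2 is required and Ly6c2 excluded by the gate) summed to 12367 CPM in CKO HFD, 6922 in WT HFD, 9434 in CKO normal diet and 8548 in WT normal diet. Nonclassical monocyte markers (12 genes) summed to 1537 CPM in CKO HFD, 1789 in WT HFD, 2930.1 in CKO normal diet and 3096 in WT normal diet, higher under the normal diet. The gated cells thus carried macrophage and monocyte markers together, with a lower summed level of the macrophage markers under the normal diet. For HFD over normal diet, 6 of 11 macrophage markers compared were over 1.5-fold higher in CKO and 7 of 12 in WT. Itgam and Ptprc went the other way in both. Of all genes, 16.9% were higher and 47.0% lower in CKO, and 11.2% and 26.5% in WT. Of the neutrophil, lymphoid, B cell and type 1 dendritic cell lists, the genes named above were at 0, but other members held UMIs in every library. The part of other cells in the results was not tested.

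Free RNA of a droplet run can place UMIs in cells that do not make them. Cells of at least 2000 UMIs, thinned to that depth, with 10 or more UMIs of fibroblast markers numbered 56 in CKO HFD (median 3698.5 UMIs before thinning) and 47 in WT HFD (median 16118). Il1b was seen in 1 of them (1.79%) in CKO HFD and 1 (2.13%) in WT HFD, against 24.9% of all cells at that depth in CKO HFD and 24.9% in WT HFD. None of them passed the whole gate, which allows a share of up to 6.38% in CKO HFD and 7.55% in WT HFD. The normal-diet libraries held 3 such cells in CKO and 2 in WT, too few for a background value. Among cells at the same depth with UMIs of 2 or more lymphoid marker genes, Il1b was seen in 1 of 9 (11.1%) in CKO HFD, 1 of 11 (9.09%) in WT HFD, 2 of 9 (22.2%) in CKO normal diet and 0 of 10 in WT normal diet. The intervals of these Il1b shares reach from 30.9% to 60.0% at their upper ends, and 0 of the lymphoid cells passed the whole gate. The other positive gate genes were seen more often in places. Ccr2 was seen in 44.4% of the lymphoid cells in CKO HFD, 54.5% in WT HFD, 55.6% in CKO normal diet and 70.0% in WT normal diet. For Csf1r the shares were 22.2%, 18.2%, 11.1% and 0% in the same order. Whether the lymphoid cells make Ccr2 themselves was not tested, so its shares there are not a background value. In the fibroblast-marker cells Ccr2 was seen in 3.57% in CKO HFD and 4.26% in WT HFD, and Csf1r in 1.79% and 4.26%. Pairs of libraries shared 2 to 12 cell barcodes, and 0 of these were gated in both.

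The targeted gene does not check the genotype here. Prdm1 stood at 29.6 CPM in CKO HFD, 30.5 in WT HFD, 39.7 in CKO normal diet and 26.3 in WT normal diet in the gated cells, with a CKO over WT ratio of 0.969 (0.787 to 1.19) under HFD and 1.51 (0.975 to 2.35) under the normal diet. UMIs come from the 3′ end, and the sources used here do not say whether the deleted exons lie there.

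To see what goes with Il1b, the gated cells were set beside Il1b-zero counterparts, which met every other criterion but held 0 Il1b UMIs: 1579 cells in CKO HFD, 1009 in WT HFD, 269 in CKO normal diet and 217 in WT normal diet. In CKO the counterparts were shallower than the gated cells, and in WT of like depth. The medians were 4685 (gated) and 3771 (counterpart) UMIs in CKO HFD, 12879 and 13062 in WT HFD, 4936 and 3597 in CKO normal diet, and 4245 and 4159 in WT normal diet. A gene was compared if the higher of the cell sets held 50 CPM and 50 UMIs or more, and called by size if the ratio of (CPM + 10) passed 1.5-fold. Of 2187 genes compared in all 4 libraries, 11 were called higher (0.503%) and 10 lower (0.457%) in every library, the gate genes left out. With both sets gated after thinning to 2000 UMIs, and a lower minimum of 10 UMIs, 43 genes were called in every library. Of the 21 genes, 18 were among them.

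The 11 higher genes include enzymes, receptors and transcription factors that inflammatory signals induce. Ptgs2, the inducible cyclooxygenase of prostaglandin synthesis, had 67 gated and 22.5 counterpart CPM in CKO HFD, 89.2 and 30.5 in WT HFD, 85.6 and 9.09 in CKO normal diet and 91.7 and 44.0 in WT normal diet. Its ratio was 2.09 to 9.42 over the 4 libraries. Clec4e, the lectin receptor Mincle, had 61.2 gated and 27.4 counterpart CPM in CKO HFD, 58.7 and 21.9 in WT HFD, 65.4 and 19.1 in CKO normal diet and 112 and 34.0 in WT normal diet. Thbs1, the matrix glycoprotein thrombospondin-1, led the 11 by mean ratio, with 2.47 to 5.45 over the libraries. The nuclear receptor gene Nr4a2 had ratios of 1.81 to 2.14, the transcription factor gene Nfil3 1.80 to 3.41 and the AP-1 family gene Fosl2 1.67 to 1.81. Negative regulators of signalling were among them: Dusp2, a phosphatase of MAP kinases, with 1.77 to 3.50, and Pde4b, which breaks down cyclic AMP, with 1.71 to 2.38. Cytip, a binding partner of cytohesin, had 1.77 to 4.07, the pro-apoptotic gene Pmaip1 1.78 to 2.33, and Sowahc 1.78 to 2.89.

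The 10 lower genes were led by genes of resident macrophages. Folr2, the folate receptor β, had 112 gated and 269 counterpart CPM in CKO HFD, 49.3 and 91.1 in WT HFD, 94.9 and 394 in CKO normal diet and 86.3 and 250 in WT normal diet. Cd163, the scavenger receptor for haemoglobin with haptoglobin, had ratios of 0.293 to 0.513, Gas6, a ligand of receptors that take up dying cells, 0.317 to 0.566, and the scavenger receptor gene Stab1 0.377 to 0.562. The others were Cbr2, Wwp1, Slco2b1, Serpinb6a, Cd63 and Txnip, with ratios between 0.263 and 0.637. Over the list of 15 resident genes, 9 of 11 compared were lower in CKO HFD, 6 of 11 in WT HFD, 13 of 14 in CKO normal diet and 10 of 12 in WT normal diet, and 0 were higher in any. Over all genes compared, 1.82% were lower in CKO HFD, 0.999% in WT HFD, 7.64% in CKO normal diet and 6.68% in WT normal diet.

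Beyond Il1b itself, few genes of the IL-1 pathway were higher in the gated cells. Of the other 22 listed members, Nlrp3, the inflammasome sensor, was called in 3 libraries, with 87.2 gated and 46.5 counterpart CPM in CKO HFD, 157 gated and 70.4 counterpart CPM in WT HFD, 198 gated and 115 counterpart CPM in CKO normal diet and 237 gated and 203 counterpart CPM in WT normal diet. Irak2, a kinase of the IL-1 receptor pathway, was called higher in both normal-diet libraries, and Il1rn, the IL-1 receptor antagonist, was called higher in CKO HFD but lower in WT normal diet. Members called higher numbered 2 of 5 compared in CKO HFD, 1 of 7 in WT HFD, 2 of 8 in CKO normal diet and 1 of 10 in WT normal diet. Over all genes, 1.86% were called higher in CKO HFD, 1.83% in WT HFD, 7.07% in CKO normal diet and 6.27% in WT normal diet. Of the 17 NF-κB genes, Tnip3 was higher in CKO HFD, and Nfkb1, Nfkbia, Nfkbiz, Tnfaip3, Tnip3 in WT HFD. Higher under the normal diet were Rel, Nfkbie, Tnip3, Ikbkb in CKO and Rel, Ikbkb in WT, and 0 were lower in any library. Tnip3 and Tnfaip3 encode inhibitors of NF-κB signalling, Nfkbia and Nfkbie inhibitory IκB proteins, and Rel and Nfkb1 subunits of the factor.

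The normal-diet gated cells differed from their counterparts in a further way. Markers of nonclassical monocytes, the patrolling blood monocytes, were higher for 1 of 4 compared genes in CKO HFD, 1 of 4 in WT HFD, 8 of 9 in CKO normal diet and 7 of 9 in WT normal diet. Of all genes compared, 1.86% were higher in CKO HFD, 1.83% in WT HFD, 7.07% in CKO normal diet and 6.27% in WT normal diet. Ace, the angiotensin-converting enzyme, had 5.78 gated and 2.06 counterpart CPM in CKO HFD, 8.20 gated and 3.03 counterpart CPM in WT HFD, 89.5 gated and 11.8 counterpart CPM in CKO normal diet and 78.9 gated and 11 counterpart CPM in WT normal diet. Itgal, the integrin chain of LFA-1, had 180.5 gated and 27.3 counterpart CPM in CKO normal diet and 198 gated and 39.0 counterpart CPM in WT normal diet. Cd36, also on that list, was lower in both normal-diet libraries. Genes known to be induced when tissue is dissociated (17 of 18 compared) had median log2 ratios of −0.13 in CKO HFD, 0.27 in WT HFD, −0.22 in CKO normal diet and −0.22 in WT normal diet. For all genes of a library, that median lay between 0.00 and 0.03. Called higher were 0 of them in CKO HFD, Nr4a1 and Socs3 in WT HFD, and Nr4a1 in each normal-diet library. Jun and a heat shock gene were among those called lower in CKO HFD and in both normal-diet libraries.

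**Figure D2:**
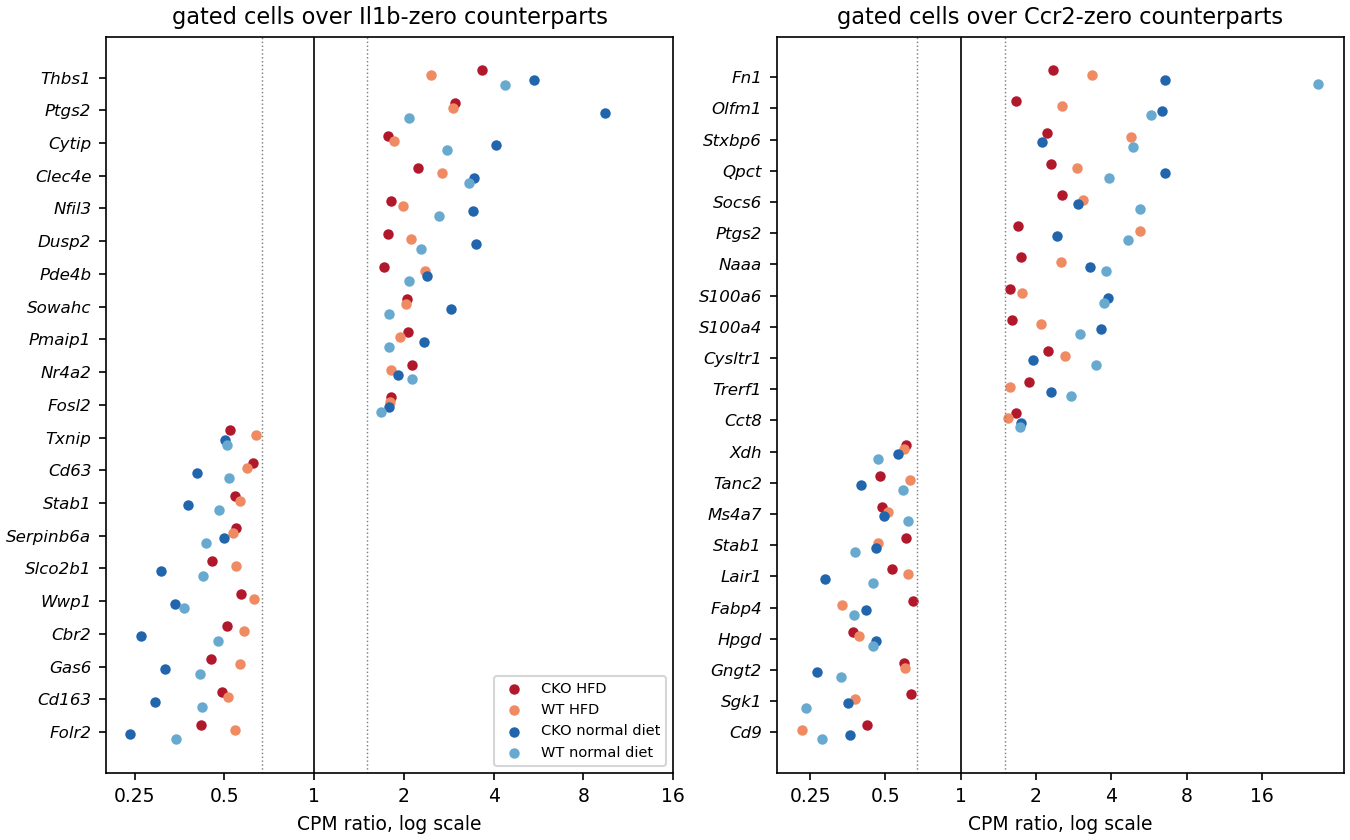
CPM ratios (log scale) of gated cells over Il1b-zero counterparts (left) and over Ccr2-zero counterparts (right), 1 point per library, for the genes past 1.5-fold (dotted lines) in all 4 libraries. On the left 11 genes lie above and 10 below, with Thbs1 and Folr2 at the ends; on the right 12 lie above and 10 below, with Fn1 and Cd9 at the ends.

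Promoter sequences are shown for 4 of the 11 genes that stood higher beside Il1b, since these genes were higher together in all 4 libraries. RefSeq promoter windows of GRCm38.p6, the 250 bases before a start site, were found for 9 of the 11 genes (12 windows). Thbs1 and Pmaip1 had none here. Both strands were searched for a C/EBP motif (TTGCNNAA), an NF-κB motif (GGGA, any 4 bases, CC), an AP-1 motif (TGANTCA) and the core of the cyclic AMP response element (CRE, TGACG). Among 32851 windows of all genes, 9.56% held the C/EBP motif, 17.6% the NF-κB motif, 6.75% the AP-1 motif and 17.8% the CRE core. Among the 12 windows, 3 held the C/EBP motif, 2 the NF-κB motif (of Pde4b and Fosl2), 0 the AP-1 motif and 3 the CRE core. Capitals mark the C/EBP match in Ptgs2, Cytip and Clec4e, and the 4 CRE cores in Nr4a2. Of all windows, 0.137% held 4 or more. Each window reads 5′ to 3′ towards its start site, Ptgs2 at chr1:150099781-150100030, plus strand, Cytip at chr2:58160123-58160372, minus strand, Clec4e at chr6:123289872-123290121, minus strand and Nr4a2 at chr2:57124004-57124253, minus strand.
Ptgs2: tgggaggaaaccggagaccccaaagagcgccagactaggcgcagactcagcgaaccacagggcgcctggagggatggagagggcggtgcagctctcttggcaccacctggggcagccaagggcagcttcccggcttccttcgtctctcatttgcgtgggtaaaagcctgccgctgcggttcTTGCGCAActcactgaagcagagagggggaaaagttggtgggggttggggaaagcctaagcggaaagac
Cytip: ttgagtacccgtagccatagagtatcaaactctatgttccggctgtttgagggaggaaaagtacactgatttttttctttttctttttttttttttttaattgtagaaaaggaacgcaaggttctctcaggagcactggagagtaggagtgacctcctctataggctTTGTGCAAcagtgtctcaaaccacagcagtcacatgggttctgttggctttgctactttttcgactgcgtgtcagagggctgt
Clec4e: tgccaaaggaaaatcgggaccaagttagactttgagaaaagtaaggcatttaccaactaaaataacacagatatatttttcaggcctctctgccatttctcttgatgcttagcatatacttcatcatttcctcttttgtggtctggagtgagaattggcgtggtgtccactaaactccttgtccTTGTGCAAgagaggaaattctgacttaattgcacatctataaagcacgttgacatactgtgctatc
Nr4a2: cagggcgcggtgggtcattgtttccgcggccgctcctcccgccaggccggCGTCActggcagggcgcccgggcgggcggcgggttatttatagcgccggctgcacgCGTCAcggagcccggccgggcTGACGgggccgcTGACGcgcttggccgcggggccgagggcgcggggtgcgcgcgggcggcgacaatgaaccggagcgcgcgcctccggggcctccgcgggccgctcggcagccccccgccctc

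A match of letters is a description of the window, and a window with no match says nothing of the factor. The 3 genes with the C/EBP letters had ratios over Il1b-zero counterparts of 2.09 to 9.42 (Ptgs2), 1.77 to 4.07 (Cytip) and 2.24 to 3.42 (Clec4e). Genes with windows but without these letters had ratios of 1.77 to 3.50 (Dusp2), 1.80 to 3.41 (Nfil3) and 1.78 to 2.89 (Sowahc). The others had 1.71 to 2.38 (Pde4b), 1.81 to 2.14 (Nr4a2) and 1.67 to 1.81 (Fosl2). Whether the letters go with the ratios was not tested.

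The same was done for Ccr2. Ccr2-zero counterparts, with Il1b and Csf1r but 0 Ccr2 UMIs, numbered 182 in CKO HFD, 65 in WT HFD, 209 in CKO normal diet and 248 in WT normal diet. In WT HFD they were deeper than the gated cells, and in the other libraries shallower. Their median was 3781.5 UMIs in CKO HFD, 13831 in WT HFD, 2709 in CKO normal diet and 2492.5 in WT normal diet. Of 1964 genes compared in every library, 12 were higher (0.611%) and 10 lower (0.509%) in the gated cells of all 4. With both sets gated after thinning to 2000 UMIs, and a minimum of 10 UMIs, 14 genes were called, of which 8 were among these 22.

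Some genes that classical monocytes carry stood with Ccr2, and others did not. Fn1, fibronectin, had 1546 gated and 663 counterpart CPM in CKO HFD, 925 and 276 in WT HFD, 2428 and 371 in CKO normal diet and 2102 and 78.4 in WT normal diet. The calcium-binding genes S100a6 and S100a4 had ratios of 1.57 to 3.86 and 1.61 to 3.64, while Qpct, an enzyme that modifies the N-terminus of proteins such as CCL2, had 2.29 to 6.54. Of the classical monocyte list as a whole, 4 of 8 compared were higher in CKO HFD, 3 of 3 in WT HFD, 3 of 6 in CKO normal diet and 3 of 5 in WT normal diet. Lower were Hp in CKO HFD, Plac8 in both normal-diet libraries and Ifitm6 in WT normal diet. Of all genes compared, 2.62% were higher and 3.47% lower in CKO HFD, and 9.76% and 7.49% in WT HFD. Under the normal diet, 12.0% were higher and 18.9% lower in CKO, and 11.9% and 19.9% in WT. Ptgs2 was the 1 gene called higher against both kinds of counterpart, with 1.69 to 5.19 here. Lower in the gated cells were Cd9, a tetraspanin of lipid-associated macrophages, with 0.233 to 0.423, the fatty acid binding protein gene Fabp4 with 0.336 to 0.643, and Hpgd, which breaks down prostaglandins, with 0.372 to 0.459. Stab1 was the 1 gene called lower against both, with 0.378 to 0.602 over Ccr2-zero cells.

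What the Ccr2-zero cells held instead differed by diet. Lipid-associated markers were lower in the gated cells for 9 of 14 in CKO HFD, 16 of 17 in WT HFD, 5 of 11 in CKO normal diet and 4 of 12 in WT normal diet. Under the normal diet the list went both ways, with 2 higher in CKO (Lpl and Lgals3) and 4 in WT (Lpl, Lgals3, Ctsl and Mmp12). Nonclassical monocyte markers were lower for 2 of 4 in CKO HFD, 3 of 5 in WT HFD, 10 of 12 in CKO normal diet and 11 of 12 in WT normal diet. MHC class II and antigen presentation genes were higher in the gated cells for 0 of 9 in CKO HFD, 3 of 10 in WT HFD, 8 of 10 in CKO normal diet and 8 of 10 in WT normal diet. Among all genes compared, 3.47% were lower and 2.62% higher in CKO HFD, 7.49% and 9.76% in WT HFD, 18.9% and 12.0% in CKO normal diet, and 19.9% and 11.9% in WT normal diet. Trem2, the lipid receptor of lipid-associated macrophages, had 209 gated and 462 counterpart CPM in CKO HFD and 274 gated and 1021 counterpart CPM in WT HFD, and Itgal had 180.5 gated and 953 counterpart CPM in CKO normal diet and 198 gated and 1127 counterpart CPM in WT normal diet.

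Cells gated after thinning to 2000 UMIs differed among themselves in complement. They numbered 546 in CKO HFD, 427 in WT HFD, 182 in CKO normal diet and 241 in WT normal diet. Some may have held an excluded gene at full depth, so this set can differ from the full-depth gate. The share of them with a UMI of C1qa, C1qb or C1qc was 78.8% in CKO HFD, 80.3% in WT HFD, 60.4% in CKO normal diet and 64.7% in WT normal diet. Over the C1q-positive cells, the C1q-zero cells had 8 genes higher (0.603% of 1326 compared) and 43 lower (3.24%) past 1.5-fold in all 4 libraries. Pf4, the chemokine platelet factor 4 that resident macrophages make, had 147 C1q-zero and 2087 C1q-positive CPM in CKO HFD, 77.4 and 905 in WT HFD, 118 and 1754.5 in CKO normal diet and 64.7 and 1878 in WT normal diet. Folr2 had 0 C1q-zero and 169.8 C1q-positive CPM in CKO HFD, 23.8 and 64.1 in WT HFD, 6.94 and 182 in CKO normal diet and 5.88 and 176 in WT normal diet. Selenop, the secreted selenium carrier, had 310.3 C1q-zero and 1193 C1q-positive CPM in CKO HFD, 304 and 882 in WT HFD, 159.7 and 1204.5 in CKO normal diet and 194 and 1183 in WT normal diet. These 3 genes were lower in C1q-zero cells of every library. The 15 resident genes together summed in C1q-zero cells to 1315 CPM in CKO HFD, 1768 in WT HFD, 1174 in CKO normal diet and 1176.5 in WT normal diet. In C1q-positive cells they summed to 5426 CPM in CKO HFD, 4230.3 in WT HFD, 6959 in CKO normal diet and 6846 in WT normal diet.

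The 8 genes higher in C1q-zero cells were Gngt2, Napsa, Cytip, Itga4, Plaur, Fam107b, Cbfa2t3 and Coro1a. Itga4, the integrin chain of VLA-4, had 155 C1q-zero and 86.0 C1q-positive CPM in CKO HFD, 274 and 160.3 in WT HFD, 715 and 309 in CKO normal diet and 788 and 311 in WT normal diet. Plaur, the urokinase receptor, had 349 C1q-zero and 192 C1q-positive CPM in CKO HFD, 333 and 168 in WT HFD, 465 and 205 in CKO normal diet and 476 and 269 in WT normal diet. Nonclassical monocyte markers stood apart under the normal diet. They summed in C1q-zero cells to 1569 CPM in CKO HFD, 1458 in WT HFD, 4451 in CKO normal diet and 4006 in WT normal diet. In C1q-positive cells they summed to 1480.2 CPM in CKO HFD, 1646 in WT HFD, 2304.5 in CKO normal diet and 2628 in WT normal diet. Il1b was higher in C1q-zero cells in 3 libraries and lower in CKO normal diet. It stood at 2103 CPM in C1q-zero and 1415 CPM in C1q-positive cells of CKO HFD, 2173 and 1369 CPM in WT HFD, 1576 and 1800 CPM in CKO normal diet, and 2035 and 1804.5 CPM in WT normal diet.

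**Figure D3:**
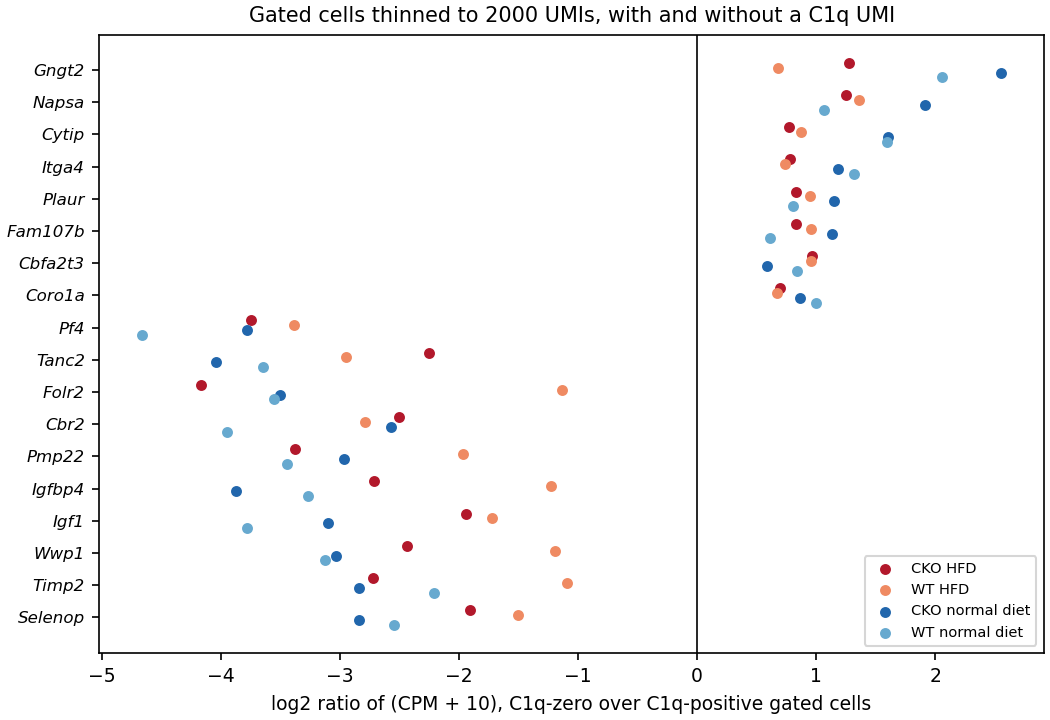
Log2 ratio of (CPM + 10) of C1q-zero over C1q-positive cells, gated after thinning to 2000 UMIs, 1 point per library, for the 8 genes higher and the 10 lowest of the 43 genes lower past 1.5-fold in all 4 libraries. The lower genes, led by Pf4, lie further from 0 than the higher ones, led by Gngt2.

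Among cells gated after thinning, 28.4% in CKO HFD, 30.4% in WT HFD, 38.5% in CKO normal diet and 43.6% in WT normal diet held 4 or more Il1b UMIs. In these high-Il1b cells, set beside gated cells with 1 Il1b UMI (low-Il1b), 2 genes of 1100 compared were higher (0.182%) and 1 lower (0.0909%) past 1.5-fold in all 4 libraries. Nlrp3 had 113 high-Il1b and 69.5 low-Il1b CPM in CKO HFD, 219 and 115 in WT HFD, 336 and 75.5 in CKO normal diet and 376 and 219.7 in WT normal diet. Pmaip1 had 109.7 high-Il1b and 58.8 low-Il1b CPM in CKO HFD, 142 and 75.8 in WT HFD, 279 and 160.4 in CKO normal diet and 248 and 129 in WT normal diet. The tetraspanin gene Cd81 was lower, with 309.7 high-Il1b and 545 low-Il1b CPM in CKO HFD, 185 and 361 in WT HFD, 114 and 358 in CKO normal diet and 186 and 295 in WT normal diet. Nlrp3 was called across the edge of the gate in 3 libraries and within the gate in all 4. Both comparisons sort cells of the same libraries by Il1b UMIs, so they are not independent of each other.

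Between libraries, far fewer genes separated CKO from WT gated cells under the normal diet than under HFD. Under the normal diet, 52 of 3563 genes compared passed 1.5-fold (1.46%), 27 higher (0.758%) and 25 lower (0.702%) in CKO. Under HFD, 999 of 3024 passed (33.0%), 274 higher (9.06%) and 725 lower (24.0%) in CKO. The HFD pair differed more in depth, with a median gated cell of 4685 UMIs in CKO HFD and 12879 in WT HFD. The medians were 4936 in CKO normal diet and 4245 in WT normal diet. With ratios centred on genes of like genomic span, 427 genes passed under HFD and 51 under the normal diet. The part of depth in these counts was not tested. For HFD over normal diet, 2329 of 3643 passed in CKO (63.9%), 615 higher (16.9%) and 1714 lower (47.0%). In WT, 1363 of 3615 passed (37.7%), 404 higher (11.2%) and 959 lower (26.5%). Each library enters 2 of these comparisons, so they are not independent. The counts are of size alone, and libraries of 1 group each cannot say how much of them repeats.

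The whole distribution shifted in 3 of the 4 comparisons, and with the length of genes. The median log2 ratio of all genes compared was −0.19 for CKO over WT under HFD, 0.01 under the normal diet, −0.51 for HFD over normal diet in CKO and −0.23 in WT. With TMM scaling, which centres most genes near 0, these medians were 0.00 for CKO over WT under HFD, 0.02 under the normal diet, 0.10 for HFD over normal diet in CKO and 0.13 in WT. The split turned to 466 higher and 516 lower for CKO over WT under HFD, 20 and 15 under the normal diet, 1146 and 925 for HFD over normal diet in CKO, and 835 and 390 in WT. Among 5 groups of genes by genomic span, the median log2 ratio of CKO over WT under HFD was 0.31 for the shortest (median 3.58 kb) and −0.80 for the longest (136 kb). HFD over normal diet had 0.61 for the shortest and −1.36 for the longest in CKO, and 0.25 and −0.56 in WT, whereas CKO over WT under the normal diet had −0.03 and 0.05. The part of span in the values of any single gene was not tested, and the sources used here do not say if reads in introns were counted.

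**Figure D4:**
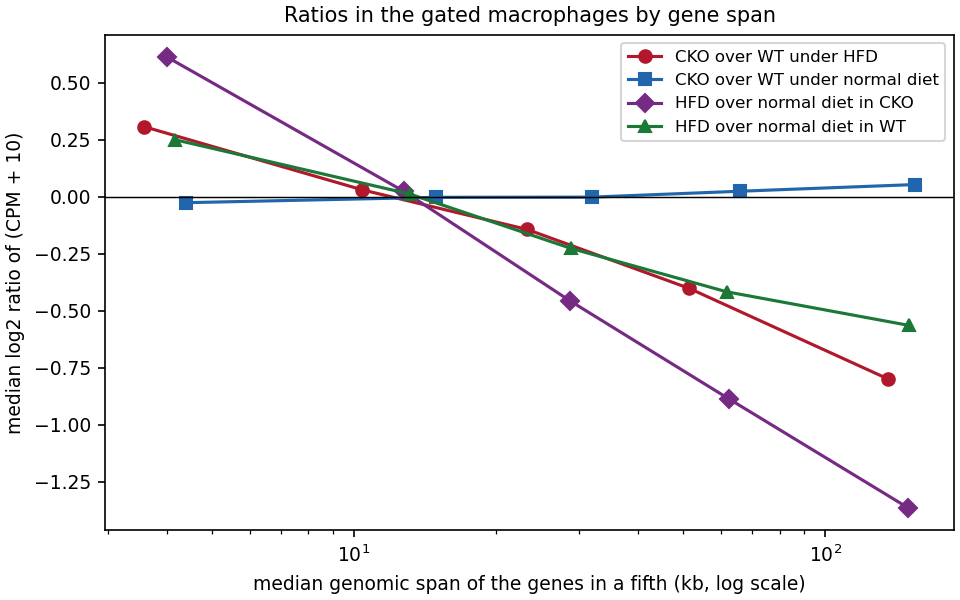
Median log2 ratio of (CPM + 10) in the gated cells for 5 groups of genes by genomic span (kb, log scale), 1 line per comparison, with no error bars because each point is a median over genes. 3 lines fall with span, HFD over normal diet in CKO the most (0.61 to −1.36), and CKO over WT under the normal diet runs from −0.03 to 0.05.

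Il10, the anti-inflammatory cytokine gene, was lower in CKO than in WT gated cells under both diets. It stood at 24.2 CPM in CKO HFD, 99.2 in WT HFD, 17.1 in CKO normal diet and 76.9 in WT normal diet. The CKO over WT ratio was 0.244 (0.199 to 0.297) under HFD and 0.223 (0.134 to 0.353) under the normal diet, and HFD over normal diet was 1.29 (1.06 to 1.58) in WT. In cells thinned to 2000 UMIs, an Il10 UMI was present in 2.38% (1.27 to 4.04) of gated cells in CKO HFD, 11.2% (8.41 to 14.6) in WT HFD, 1.65% (0.341 to 4.74) in CKO normal diet and 8.71% (5.47 to 13) in WT normal diet. Both CKO libraries were lower than both WT libraries on each measure, with intervals that do not overlap across genotypes in the levels. Under the normal diet, however, the Il10 UMIs came from 8 gated cells in CKO and 43 in WT, where 10 cells held 58.8% of them. The intervals of the levels do not cover such clumping in few cells. Over the alternatives tried, the log2 ratio ran from −2.65 to −1.56 under HFD and from −2.23 to −1.48 under the normal diet.

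Il10 was lower in CKO in other cells of these libraries too. In Il1b-zero counterparts the CKO over WT ratio was 0.325 (0.268 to 0.391) with HFD and 0.290 (0.151 to 0.528) with the normal diet. In all kept cells it was 0.275 (0.257 to 0.295) with HFD and 0.356 (0.319 to 0.398) with the normal diet. In Ccr2-zero counterparts it was 0.432 (0.283 to 0.645) with HFD and 0.732 (0.440 to 1.20) with the normal diet, where the normal-diet interval includes 1. Among C1q-positive gated cells alone, thinned, the ratio was 0.203 (0.107 to 0.362) under HFD and 0.320 (0.119 to 0.741) under the normal diet. By Il1b class, the thinned cells with 2 to 3 Il1b UMIs of the normal-diet libraries were the exception, with 6 Il10 UMIs in CKO and 7 in WT and a ratio of 1.02 (0.282 to 3.53). Gated over Il1b-zero cells, Il10 was called higher in both WT libraries, while in CKO it was under 50 CPM and not compared. It had 24.2 gated and 19.4 counterpart CPM in CKO HFD, 99.2 and 59.8 in WT HFD, 17.1 and 13.6 in CKO normal diet and 76.9 and 47.0 in WT normal diet.

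Genes of the IL-1 pathway differed in direction within a comparison. The median log2 ratio of the other members compared was −0.48 for CKO over WT under HFD (7 of 22, 0 higher and 3 lower), −0.12 under the normal diet (10, 0 and 0), −0.77 for HFD over normal diet in CKO (9, 2 and 5) and −0.33 in WT (10, 0 and 2). Of all genes, 24.0% were lower for CKO over WT under HFD, 47.0% for HFD over normal diet in CKO and 26.5% in WT, so that the IL-1 counts of the diet comparisons lie near those of all genes. With cells gated after thinning, the median for CKO over WT under the normal diet was 0.02, on the other side of 0. Nlrp3 stood at 87.2 CPM in CKO HFD, 157 in WT HFD, 198 in CKO normal diet and 237.5 in WT normal diet, lowest in CKO HFD and highest in WT normal diet. Its CKO over WT ratio was 0.556 (0.497 to 0.621) under HFD and 0.832 (0.705 to 0.981) under the normal diet, and HFD over normal diet was 0.441 (0.376 to 0.518) in CKO and 0.660 (0.588 to 0.743) in WT. Pycard, the adaptor ASC that links NLRP3 to caspase-1, ran the other way, at 265 CPM in CKO HFD, 239 in WT HFD, 171 in CKO normal diet and 179 in WT normal diet. For Pycard HFD over normal diet was 1.55 (1.34 to 1.79) in CKO and 1.33 (1.18 to 1.52) in WT.

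Of the regulators, Il1rn, whose product blocks the IL-1 receptor, stood at 93.6 CPM in CKO HFD, 73.9 in WT HFD, 49.8 in CKO normal diet and 61.4 in WT normal diet. HFD over normal diet was 1.88 (1.44 to 2.48) for Il1rn in CKO and 1.20 (0.967 to 1.51) in WT, where the interval includes 1. Irak2 stood at 36.0 CPM in CKO HFD, 107 in WT HFD, 159 in CKO normal diet and 145 in WT normal diet, with a CKO over WT ratio of 0.336 (0.284 to 0.395) under HFD. Casp4, the caspase of the noncanonical inflammasome, stood at 53.8 CPM in CKO HFD, 91.8 in WT HFD, 98.8 in CKO normal diet and 115 in WT normal diet. Both were lowest in CKO HFD. Of the receptors, Il1r1 stood at 1.07 CPM in CKO HFD, 1.60 in WT HFD, 3.11 in CKO normal diet and 3.37 in WT normal diet. The decoy receptor gene Il1r2 stood at 4.07 CPM in CKO HFD, 13 in WT HFD, 20.2 in CKO normal diet and 27.7 in WT normal diet. Il18, the other cytokine that caspase-1 cuts, differed little between libraries, at 27.0 CPM in CKO HFD, 25.8 in WT HFD, 25.7 in CKO normal diet and 27.0 in WT normal diet.

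Genes of NF-κB and its inhibitors were lower under HFD for 9 of 12 in CKO and 5 of 13 in WT, beside 47.0% of all genes in CKO and 26.5% in WT. Their median log2 ratio was −0.47 for CKO over WT under HFD (5 of 11 lower, 0 higher), −0.07 under the normal diet (0 of 13 lower, 0 higher), −0.80 for HFD over normal diet in CKO (9 of 12 lower, 0 higher) and −0.56 in WT (5 of 13 lower, 1 higher). For CKO over WT under HFD, 24.0% of all genes were lower. The sign of these medians stayed the same in 4 alternatives: TMM scaling, gating after thinning, C1q-positive gated cells alone and centring on genes of like span. They ran from −0.49 to −0.28 for CKO over WT under HFD, −0.06 to −0.02 under the normal diet, −0.86 to −0.32 for HFD over normal diet in CKO and −0.50 to −0.25 in WT. Nfkb1 stood at 163 CPM in CKO HFD, 338 in WT HFD, 609 in CKO normal diet and 661 in WT normal diet. Rel stood at 144 CPM in CKO HFD, 327 in WT HFD, 524 in CKO normal diet and 574 in WT normal diet. The inhibitor gene Nfkbia showed the same order with smaller steps, at 847 CPM in CKO HFD, 958 in WT HFD, 1144 in CKO normal diet and 1160 in WT normal diet. Nfkbiz, an atypical IκB that NF-κB induces, stood at 434 CPM in CKO HFD, 604 in WT HFD, 943 in CKO normal diet and 931 in WT normal diet. For all 4 genes both HFD libraries were below both normal-diet libraries. Rela, the p65 subunit, stood at 58.7 CPM in CKO HFD, 68.7 in WT HFD, 65.3 in CKO normal diet and 85.7 in WT normal diet. Relb stood at 36.8 CPM in CKO HFD, 67.6 in WT HFD, 62.2 in CKO normal diet and 62.7 in WT normal diet. Nfkbie stood at 24.2 CPM in CKO HFD, 53.2 in WT HFD, 56.0 in CKO normal diet and 59.4 in WT normal diet. These 3 were lowest in CKO HFD. Tnfaip3, the A20 enzyme that ends NF-κB signalling, split by diet alone, at 258 CPM in CKO HFD, 259 in WT HFD, 403 in CKO normal diet and 388 in WT normal diet.

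Tnip3, an inhibitor that binds A20, stood apart from the rest of the list. It stood at 234.5 CPM in CKO HFD, 795 in WT HFD, 391 in CKO normal diet and 413.5 in WT normal diet, so that WT HFD was above the other 3 libraries. The ratio of Tnip3 in CKO over WT was 0.295 (0.277 to 0.314) with HFD and 0.945 (0.838 to 1.06) with the normal diet. Its HFD over normal diet ratio was 0.600 (0.540 to 0.669) in CKO and 1.92 (1.77 to 2.09) in WT. Centred on genes of like span, the log2 ratio of Tnip3 for HFD over normal diet in CKO turned to 0.48.

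Several chemokine genes, in contrast, were higher in CKO HFD. Of the list of 17, 5 of 10 compared were higher and 0 lower for CKO over WT under HFD (median log2 ratio 0.67), 0 and 2 of 11 under the normal diet (−0.06), 7 and 0 of 10 for HFD over normal diet in CKO (0.80), and 3 and 4 of 11 in WT (0.37). Of all genes, 9.06% were higher and 24.0% lower for CKO over WT under HFD, 0.758% and 0.702% under the normal diet, 16.9% and 47.0% for HFD over normal diet in CKO, and 11.2% and 26.5% in WT. Ccl2, a ligand of CCR2, stood at 1682 CPM in CKO HFD, 650.5 in WT HFD, 466 in CKO normal diet and 363 in WT normal diet. Its CKO over WT ratio was 2.59 (2.50 to 2.67) under HFD and 1.28 (1.14 to 1.45) under the normal diet, and HFD over normal diet was 3.61 (3.32 to 3.93) in CKO and 1.79 (1.64 to 1.96) in WT. With cells gated after thinning, the log2 ratio of Ccl2 for CKO over WT under the normal diet was −0.57, so its direction there depends on which cells are gated. The CCR2 ligand Ccl7 stood at 562 CPM in CKO HFD, 296 in WT HFD, 118 in CKO normal diet and 138 in WT normal diet. Ccl12 stood at 181 CPM in CKO HFD, 57.9 in WT HFD, 110.5 in CKO normal diet and 106 in WT normal diet. All 3 ligands were highest in CKO HFD. The list's medians over 4 alternatives were 0.28 to 0.87 for CKO over WT under HFD, −0.24 to −0.04 under the normal diet, 0.11 to 1.28 for HFD over normal diet in CKO and 0.02 to 0.69 in WT.

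Ccl24, an attractant of eosinophils, stood at 160.4 CPM in CKO HFD, 40.8 in WT HFD, 142 in CKO normal diet and 148 in WT normal diet, lowest in WT HFD. Ccl5 stood at 82.5 CPM in CKO HFD, 1.10 in WT HFD, 1.56 in CKO normal diet and 22.9 in WT normal diet, but its CKO HFD level came from 24 cells, 10 of which held 95.8% of its UMIs. Of the neutrophil attractants, Cxcl1 passed 1.5-fold for HFD over normal diet in both genotypes and Cxcl2 in CKO. Cxcl2 stood at 3500 CPM in CKO HFD, 2396 in WT HFD, 1784 in CKO normal diet and 2014 in WT normal diet. Cxcl1 stood at 144 CPM in CKO HFD, 159 in WT HFD, 82.5 in CKO normal diet and 89.0 in WT normal diet. HFD over normal diet was 1.75 (1.42 to 2.17) for Cxcl1 in CKO and 1.78 (1.49 to 2.14) in WT. For Cxcl2 it was 1.96 (1.88 to 2.05) in CKO and 1.19 (1.15 to 1.24) in WT, and among thinned C1q-positive gated cells of WT it was 0.990 (0.911 to 1.08). Of the receptors, Cx3cr1 stood at 94.4 CPM in CKO HFD, 82.8 in WT HFD, 152 in CKO normal diet and 258 in WT normal diet. Cxcr4 stood at 232 CPM in CKO HFD, 116 in WT HFD, 230.3 in CKO normal diet and 239 in WT normal diet, lowest in WT HFD.

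Among other cytokines, Tnf and Il6 differed in pattern. Tnf stood at 109.9 CPM in CKO HFD, 116 in WT HFD, 97.2 in CKO normal diet and 90.4 in WT normal diet, which all lie within 1.5-fold of each other. Il6 stood at 30.8 CPM in CKO HFD, 19.9 in WT HFD, 152.5 in CKO normal diet and 102.5 in WT normal diet. For Il6 HFD over normal diet was 0.202 (0.162 to 0.252) in CKO and 0.194 (0.156 to 0.241) in WT, and CKO over WT was 1.49 (1.20 to 1.85) under the normal diet. In thinned gated cells, an Il6 UMI was present in 5.86% (4.04 to 8.17) in CKO HFD, 4.68% (2.88 to 7.14) in WT HFD, 20.9% (15.2 to 27.5) in CKO normal diet and 13.7% (9.62 to 18.7) in WT normal diet. Both normal-diet libraries were above both HFD libraries for Il6. Osm, oncostatin M, stood at 71.5 CPM in CKO HFD, 51.4 in WT HFD, 56.0 in CKO normal diet and 56.7 in WT normal diet. Tgfb1 stood at 266 CPM in CKO HFD, 314 in WT HFD, 273 in CKO normal diet and 309 in WT normal diet.

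**Figure D5:**
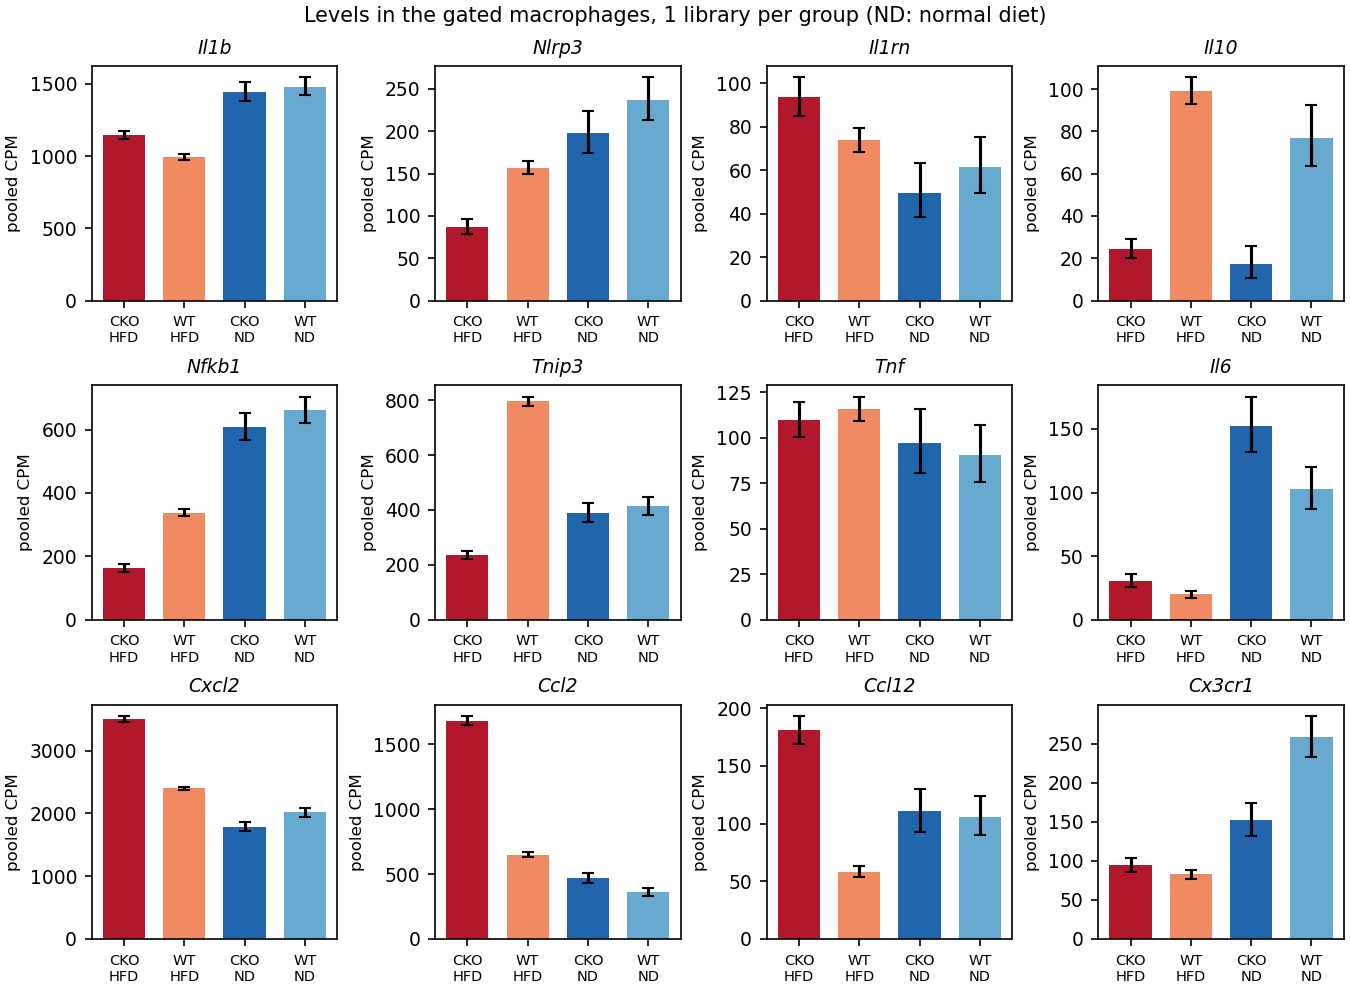
Pooled CPM in the gated cells of each library for 12 genes of the IL-1 pathway, NF-κB, cytokines and chemokines; bars are 1 library each and error bars are exact 95% Poisson intervals for counting error only. Il10 is low in both CKO libraries, Tnip3 is high in WT HFD alone, Ccl2 is high in CKO HFD, and Il6 and Nfkb1 are higher under the normal diet (ND).

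Beyond these lists, the 10 highest and 10 lowest ratios of each comparison were named. For CKO over WT under HFD, the highest were Ccl5, Lyz1, Ifitm6, Ifitm3, Ccl24, Crip1, Ccl12, Tmsb10, Mt1 and S100a6. Ifitm3, which encodes an antiviral membrane protein, had 2403 CPM in CKO HFD and 698 CPM in WT HFD, and the related Ifitm6 101 CPM in CKO HFD and 16.8 CPM in WT HFD. Crip1, a small LIM-domain protein gene, had 8903 CPM in CKO HFD and 2975 CPM in WT HFD, and the metallothionein gene Mt1 2706 CPM in CKO HFD and 1006 CPM in WT HFD. Lyz1, a lysozyme gene, had 275 CPM in CKO HFD and 55.9 CPM in WT HFD, and reads shared with its close relative Lyz2 leave its count uncertain. Classical monocyte genes were higher for 4 of 7 compared (Plac8, Ifitm6, Fn1 and S100a6) and lower for 0, beside 9.06% of all genes higher and 24.0% lower. Plac8 stood at 98.3 CPM in CKO HFD, 35.6 in WT HFD, 597 in CKO normal diet and 577 in WT normal diet.

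The 10 lowest in CKO under HFD were Cmss1, Cdk8, Neat1, Lars2, Camk1d, Gphn, Il31ra, Maml3, AY036118 and Vav3. Apart from AY036118 (0.923 kb), their genomic spans ran from 20.8 kb (Neat1) to 458 kb (Gphn). The spans of the 10 highest ran from 1.19 kb (Ifitm3) to 11.3 kb (S100a6). The part of span in this ranking was not tested. Cmss1 had 305 CPM in CKO HFD and 3638 CPM in WT HFD, the kinase gene Cdk8 92.5 CPM in CKO HFD and 704 CPM in WT HFD, and the mitochondrial leucyl-tRNA synthetase gene Lars2 100 CPM in CKO HFD and 648 CPM in WT HFD. In the normal-diet libraries, Cmss1 had 849.6 CPM in CKO normal diet and 938 CPM in WT normal diet, Cdk8 360.2 CPM in CKO normal diet and 341 CPM in WT normal diet and Lars2 537 CPM in CKO normal diet and 393 CPM in WT normal diet, so that the HFD libraries lay on either side of both. Subunits of the respiratory chain and ATP synthase were higher for 13 of 16 in CKO HFD over WT HFD, beside 9.06% of all genes, with a median log2 ratio of 0.94, and 0.72 when centred on genes of like span. Lipid-associated genes were higher for 2 of 15 (Fabp4 and Itgax) and lower for 5 (Gpnmb, Ctsl, Atp6v0d2, Plin2 and Lipa), near the 9.06% and 24.0% of all genes that were higher and lower. Of genes linked to BLIMP1, Ciita, the master regulator of MHC class II that BLIMP1 represses in B cells, stood at 79.5 CPM in CKO HFD, 175 in WT HFD, 73.9 in CKO normal diet and 73.5 in WT normal diet. Bcl6, a repressor that opposes BLIMP1 in B cells, stood at 32.1 CPM in CKO HFD, 63.1 in WT HFD, 138.5 in CKO normal diet and 152.5 in WT normal diet.

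Under the normal diet, the 10 highest in CKO were Hspa1b, Mfsd6, Retnla, Chst11, Hspa1a, Hist1h1c, Bzw2, Ptpn7, Qpct and Klf9, and the 10 lowest were Il10, Mmp12, C3, AI504432, Thbs1, Ccl8, Slc15a2, Apobec3, Cx3cr1 and Cwf19l2. Retnla, a secreted resistin-like protein of alternatively activated macrophages, had 8713 CPM in CKO normal diet and 4280 CPM in WT normal diet, a ratio of 2.04 (1.97 to 2.10), in 156 cells of CKO and 143 of WT. Gated after thinning, its log2 ratio was 0.52, short of 1.5-fold. In thinned subsets of the gated cells the Retnla ratio was 2.28 (2.09 to 2.49) in those with 1 Il1b UMI, 0.636 (0.566 to 0.714) in those with 4 or more, and 0.998 (0.878 to 1.13) in C1q-zero cells. The heat shock gene Hspa1b had 101 CPM in CKO normal diet and 33.0 CPM in WT normal diet, and Hspa1a 80.9 CPM in CKO normal diet and 41.1 CPM in WT normal diet. The dissociation list they belong to had 3 of 17 higher and 0 lower, beside 0.758% of all genes higher. Mmp12, macrophage elastase, had 45.1 CPM in CKO normal diet and 129.5 CPM in WT normal diet, but all of its UMIs in CKO came from 8 cells, and 10 of 23 cells held 86.5% of them in WT. Cx3cr1, the fractalkine receptor, had a ratio of 0.587 (0.492 to 0.700), and Thbs1 0.544 (0.448 to 0.659). Chst11 and Bzw2 were on the other side of 0 when cells were gated after thinning, and of the 52 genes 14 were called in that setting too.

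For HFD over normal diet in CKO, the 10 highest were Ccl5, Hilpda, Fabp4, Fabp5, Mt1, Lgals1, Ccl7, Atp5g1, Polr2j and Pold4, and the 10 lowest Slc8a1, Setbp1, Rap1gap2, Arhgap15, Lsmem1, Dusp16, Hdac9, Trps1, Lrmda and Mpp7. In WT, the 10 highest were Rnase2a, Gpnmb, Trem2, Tmem37, Igf1, Fabp5, Atp6v0d2, Cmss1, Basp1 and C1qb, and the 10 lowest Plac8, Itgal, Lyz1, Gsr, Saa3, Setbp1, Slc12a2, Ifitm6, Cd209a and Rap1gap2. Genomic spans in CKO ran from 1.25 kb (Mt1) to 6.82 kb (Atp5g1) among the 10 highest. Among the 10 lowest they ran from 24.0 kb (Lsmem1) to 1036 kb (Lrmda). The WT spans ran from 0.851 kb (Rnase2a) to 305 kb (Cmss1) among the highest. Among the lowest they ran from 2.23 kb (Ifitm6) to 359 kb (Setbp1). The part of span in these rankings was not tested. Setbp1 had 0 UMIs in CKO HFD and was at least 132-fold lower than in CKO normal diet, taking 3 UMIs over the group as the floor, with an exact 95% bound of 105.5-fold from the counts of both groups. Rnase2a had 0 UMIs in WT normal diet and was at least 28.6-fold higher in WT HFD by the same floor, with an exact 95% bound of 23.2-fold. Gpnmb, a glycoprotein of lipid-associated macrophages, had 3 UMIs in WT normal diet and a ratio of 30.4 (10.4 to 148) in WT HFD over it. Saa3, an acute phase gene, had 1 UMI in WT HFD, and its 90 UMIs in WT normal diet came from 5 cells.

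Lists of subset markers differed between diets within the gate. Lipid-associated genes were higher for 8 of 13 in CKO and 11 of 15 in WT, with 0 lower in either. Of all genes, 16.9% were higher in CKO and 11.2% in WT. Trem2 stood at 209 CPM in CKO HFD, 274 in WT HFD, 48.2 in CKO normal diet and 39.1 in WT normal diet, with HFD over normal diet of 4.34 (3.35 to 5.70) in CKO and 6.99 (5.39 to 9.23) in WT. Fabp5 stood at 267 CPM in CKO HFD, 243 in WT HFD, 43.6 in CKO normal diet and 51.9 in WT normal diet. C1qb was higher under HFD in both genotypes, at 2440 CPM in CKO HFD, 2704 in WT HFD, 799.8 in CKO normal diet and 834 in WT normal diet. Nonclassical monocyte genes were higher for 0 in CKO and 1 in WT (Ear2), and lower for 6 of 9 in CKO and 7 of 9 in WT, against 47.0% of all genes in CKO and 26.5% in WT. Itgal stood at 16.7 CPM in CKO HFD, 9.10 in WT HFD, 180.5 in CKO normal diet and 198 in WT normal diet. Both HFD libraries were below both normal-diet libraries for Itgal. Classical monocyte genes went both ways: 3 of 8 were higher in CKO (Chil3, S100a4 and S100a6) and 4 lower (Plac8, Ifitm6, Fn1 and Ms4a4c), while 1 of 5 was higher in WT (S100a4) and 3 lower (Plac8, Ifitm6 and Fn1).

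Resident genes were lower under HFD for 5 of 10 in CKO, near the 47.0% of all genes, and for 6 of 11 in WT, where 26.5% of all genes were lower. Their median log2 ratio was −0.38 in CKO, beside −0.51 for all genes, and −0.61 in WT, beside −0.23. With TMM scaling the CKO median was 0.10, and that of all genes was 0.10. MHC class II and antigen presentation genes were higher for 4 of 10 in CKO and 4 of 10 in WT, H2-Ab1, Cd74 and H2-DMb1 in both, beside 16.9% of all genes in CKO and 11.2% in WT. Lower were Cd86 and Cd80, which encode costimulatory ligands, in CKO and Cd80 in WT. Respiratory chain genes were higher for 14 of 16 in CKO and 1 of 16 in WT, against the same shares of all genes. The WT median was 0.05 and was −0.18 to 0.37 over 4 alternatives, on both sides of 0. Hilpda, a lipid droplet gene that hypoxia induces, stood at 161 CPM in CKO HFD, 82.8 in WT HFD, 13.2 in CKO normal diet and 33.0 in WT normal diet, highest in CKO HFD. The glycolysis and hypoxia list had 5 of 10 higher in CKO and 4 of 10 in WT, and 1 lower in each, Hk2, hexokinase 2. Of 13 Toll-like receptor and lectin genes, 1 of 4 compared was lower in CKO (Tlr2), where 47.0% of all genes were, and 3 of 5 in WT (Tlr2, Clec4e and Clec4d), where 26.5% of all genes were.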

How the data were processed

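Each of the 4 groups is 1 library of 3′ single-cell RNA-seq. The authors deposited UMI counts per gene and cell, made with Cell Ranger 7.0.0 per the file headers, on GRCm38 per the submitters' processing notes. The sources used here do not say if reads in introns were counted. Cells with at least 500 UMIs, 300 genes and at most 10% mitochondrial UMIs were kept; kept UMIs numbered 42551849 in CKO HFD, 74442649 in WT HFD, 24513539 in CKO normal diet and 21788293 in WT normal diet. UMIs of gated cells were summed per library (from 1285299 to 10003548) and scaled to CPM. CPM has an exact Poisson interval, a share an exact Clopper-Pearson interval and a ratio an exact conditional interval, all at 95%. A gene was compared if the library with more of it held 50 CPM and 50 UMIs or more, the 11 gate genes left out, and called when the ratio of (CPM + 10) passed 1.5-fold. The minimum was 10 UMIs for counterparts compared after thinning, and also below 50 UMIs for the C1q and Il1b classes. A symbol with more than 1 gene ID was read by the first. No test was made, since there is 1 library per group. The text names the gate genes and Prdm1, members of the IL-1 and NF-κB lists, leading genes of the other lists, and the 10 highest and 10 lowest ratios of each comparison; for the counterparts it names the highest and lowest mean log2 ratios among genes called in all 4 libraries. Other genes were named after their values were seen. Members and gene lists were chosen with earlier results of these data known. Thinning drew 2000 UMIs per cell without replacement. Thinned gated cells, and their C1q and Il1b classes, passed the gate after thinning, so some may have held an excluded gene at full depth. Scrublet's automatic threshold called 0 doublets and so did not work; doublets were not removed, and removing the top scores was an alternative. Genomic spans came from the gene annotation of GRCm38. Alternatives covered scaling (TMM of edgeR 4.0.16), filters, thinning, gate minimums, mitochondrial limit, equal weight of cells, doublets and markers of other types. Scripts ran in Python 3.11.15 (numpy 2.4.6, pandas 2.3.3, scipy 1.17.1, scanpy 1.11.5, matplotlib 3.10.9) and R 4.3.3, and were tested on simulated data.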

Additional observations from a re-analysis of the deposited data

Results flagged for a closer look

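Among named and listed genes, 7 lay past 1.5-fold one way in one pair of libraries and past it the other way in the matching pair; none of these differences between pairs was tested. The linker histone gene Hist1h1c had a CKO over WT ratio of 0.630 under HFD and 2.01 under the normal diet. For HFD over normal diet, the chemokine gene Ccl12 had a ratio of 1.64 in CKO and 0.546 in WT, and Crip1 had 1.91 in CKO and 0.652 in WT. Tnip3 ran the other way, with 0.600 in CKO and 1.92 in WT. Cmss1 had 0.359 in CKO and 3.88 in WT, Cdk8 0.257 in CKO and 2.07 in WT, and Lars2 0.186 in CKO and 1.65 in WT.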

How the results depend on the processing

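The share ratio of CKO over WT under HFD was 0.766 and 0.734 after thinning to 2000 and 1000 UMIs, 0.426 with 2 UMIs of each positive gene required, and 3.93, reversed, without cells holding 2 or more UMIs of other cell types' markers. HFD over normal diet in the same settings was 1.36, 1.18, 2.01 and 2.14 in CKO, and 1.17, 1.16, 3.87 and 0.379, reversed, in WT; without excluded genes it was 0.95, reversed, in CKO and 1.21 in WT. The marker setting removed 48.9% of gated cells in CKO HFD, 91.7% in WT HFD, 59.4% in CKO normal diet and 56.7% in WT normal diet. Another setting, chosen after seeing the data, left 8 genes out of the marker list. Its ratios were 0.652 for CKO over WT under HFD, 0.760 under the normal diet, 1.70 for HFD over normal diet in CKO and 1.98 in WT. The 999 genes called for CKO over WT under HFD became 1518 at 10 CPM, 1545 with no filter, 620 without other types' markers and 427 when centred by span; the 52 under the normal diet became 275 at 10 CPM, 319 with no filter, 138 with 2 UMIs required, 92 with cells weighted equally, 104 without other types' markers and 106 in C1q-positive cells. The 2329 for HFD over normal diet in CKO became 3823, 3953, 1405 and, centred by span, 1185; the 1363 in WT became 2267, 2341 and, gated after thinning, 897. Genes called in all 4 libraries over Il1b-zero counterparts numbered 43 thinned and 37 at 10 CPM, and over Ccr2-zero counterparts 14 and 47. The thinned counts also rest on a lower minimum of 10 UMIs. Log2 ratios of single genes reversed for Chst11, CKO over WT under the normal diet, to −0.47 gated after thinning and −0.33 without other types' markers; for Bzw2 there to −0.41 gated after thinning; for Tnip3, HFD over normal diet in CKO, to 0.48 centred by span; and for Ccl2 in WT to −0.049 without other types' markers. Some smaller ratios outside this list also changed sign. Ccl2, CKO over WT under the normal diet, went from 0.35 to −0.57 gated after thinning, and Retnla, CKO over WT under HFD, from 0.35 to −0.09 centred by span. By construction the settings on low genes test more genes and the settings on cells use fewer cells. Otherwise the cause was not tested. Of 946 list medians under alternatives, 825 moved by less than 0.25 on the log2 scale, and of 1121 single-gene values 604 stayed within the counting interval or that distance. The centring by span and the C1q setting were also chosen after seeing the data. No paired analysis was possible because each group is 1 library; for the same reason no library could be left out. Depth also limits the shares, as the WT HFD library is the deepest and 1 UMI decides membership.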
